A study of Homo sapiens with 12 samples.

Results

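The distal end of the long arm of human chromosome 19, band 19q13.43, holds a run of genes for DNA-binding proteins with C2H2 zinc fingers. The members described here are 50 zinc finger and SCAN genes taken from a list of symbols, whether or not they changed, out of 26364 genes counted. Their RNA was measured in RKO, an established line of human colon carcinoma cells, by sequencing of polyadenylated RNA in 12 libraries that form 6 groups of 2. Wild type was unmodified RKO. KO2 and KO5 were derivatives in which PRDM1 had been knocked out with CRISPR/Cas9, and GFP, alpha and beta were derivatives overexpressing GFP, PRDM1α or PRDM1β. PRDM1 encodes a zinc finger repressor known from plasma cell differentiation. The labels give no vector or promoter for the overexpressed genes, and they leave unsaid whether KO2 and KO5 are single clones and whether replicate libraries had their own cultures. P-values here thus reflect library-to-library spread only, which may be technical.

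Most proteins of this family join an array of zinc fingers, which reads DNA, to a KRAB domain, which binds the corepressor TRIM28. TRIM28 brings the histone methyltransferase SETDB1 and HP1 proteins, so that the bound site gains methylation of histone H3 at lysine 9 and is silenced. Transposable elements are the best known targets. The SCAN domain, carried by the ZSCAN genes and by ZNF274 and ZNF446, lets such proteins pair with each other. Several genes of the cluster, among them ZNF582, ZNF471, ZNF667, ZNF671, ZNF154 and ZSCAN18, are known for methylated promoters in tumours. PEG3, an imprinted gene expressed from the paternal copy, lies between the first members and the rest.

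Gene counts per library ranged from 19058967 to 55961821, and levels are given as CPM, counts per 1000000 counts assigned to genes. Of the 7 colon epithelial markers, KRT8 had 9936 to 36978 counts per library, KRT18 6269 to 18095 and CDX2 318 to 849, whereas EPCAM was at 0 in all 12 libraries and KRT19, CDH1 and VIL1 had at most 2 counts. The summed level of the 7 was 977.5 to 999.3 CPM in wild type, 1006 to 1028 in KO2, 1127 to 1189 in KO5, 901.6 to 928.8 with GFP, 819.4 to 822.9 with alpha and 929.2 to 930.4 with beta. The 5 fibroblast markers summed to between 8.37 and 13.0 CPM in every library, with DCN at 0 throughout, and the 4 leukocyte markers to at most 0.0394 CPM. The part of these shifts in the results was not tested. PRDM1 itself had 4 counts in each wild-type library, at most 1 in any knockout library, and 2 and 6 with GFP. The alpha libraries had 11475 and 9681, the beta libraries 22395 and 28423. These counts bear out overexpression of PRDM1 in the alpha and beta libraries. They are per gene, so they cannot tell PRDM1α from PRDM1β, and they do not check the GFP label. PRDM1 RNA was too scarce in wild type for these counts to check the knockouts.

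Reads were spread very unevenly over the cluster. Of the 50 members, 32 had enough counts to be tested and 18 did not, a tested share of 64.0% against 82.1% of the 526 other genes with a zinc finger symbol (ZNF, ZSCAN, ZFP and the like) and 48.8% of all genes. There was no gradual transition between the 2 classes: the most counted untested member had 18 counts summed over the 12 libraries, and the least counted tested member, ZNF837, had 148. The most counted member was ZNF583, with 33036. Between genes, levels are compared only per kilobase of transcript, and on that scale the wild-type levels of the tested members ran from 0.257 CPM per kb for ZNF837 through a median of 2.91 to 9.06 for ZNF544, 9.13 for ZNF71 and 18.0 for ZNF583.

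**Figure D1:**
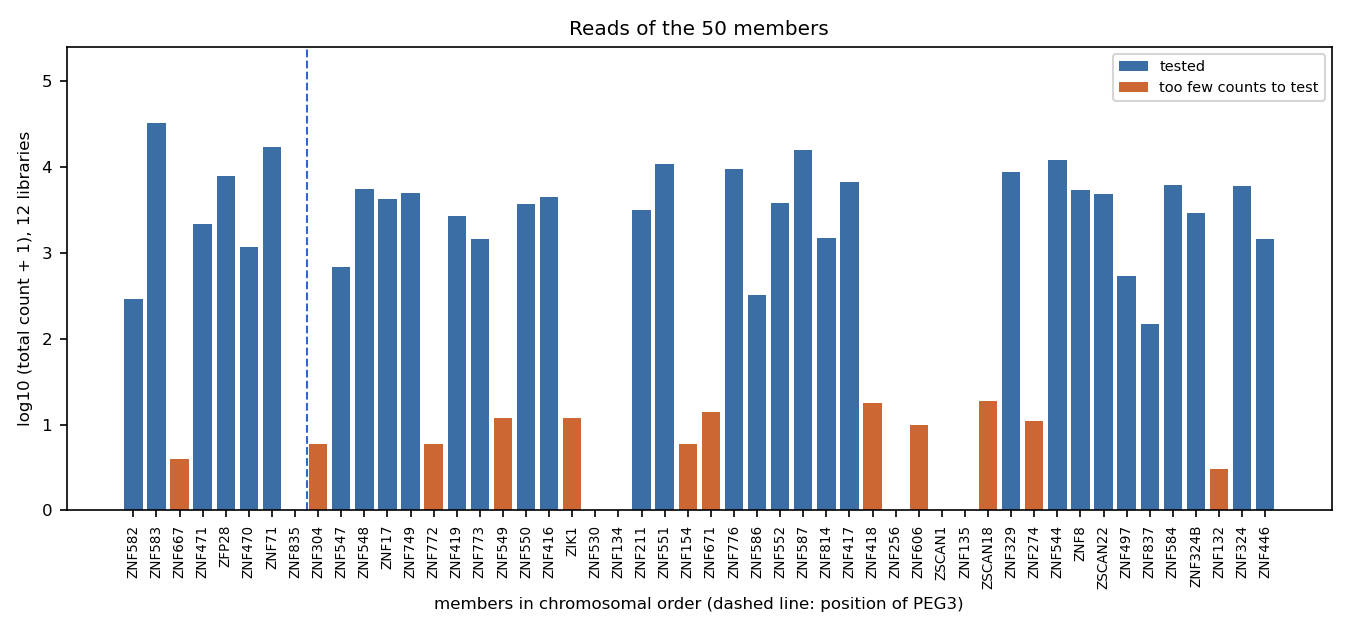
Reads of each of the 50 members, summed over the 12 libraries and drawn as log10 of the total count plus 1, in chromosomal order. Blue bars are the 32 tested members and orange bars the 18 with too few counts to test. The untested members have totals of 0 to 18 and lie among tested ones along the whole cluster, and the dashed line marks the position of PEG3.

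The members without a usable signal included 4 of the 6 named above for tumour methylation. ZNF671 had 13 counts in all 12 libraries together, ZNF154 5 and ZNF667 3. ZSCAN18 had 18, of which 7 lay in KO2 replicate 1. ZNF274, a SCAN and KRAB protein known for bringing SETDB1 to the 3′ ends of zinc finger genes, had 10 counts, and ZNF304, a KRAB protein, had 5. ZNF835, ZNF530, ZNF134, ZNF256, ZSCAN1 and ZNF135 were at 0 in every library, and the rest of the untested members were ZNF418 with 17 counts, ZNF549 and ZIK1 with 11 each, ZNF606 with 9, ZNF772 with 5 and ZNF132 with 2. A count of 0 allows a level of up to 0.157 CPM in the shallowest library and 0.0536 CPM in the deepest. A lower level could be missed in a single library, and the libraries together bound it more closely. In no group did any of the 18 exceed 7 counts in a library. DNA methylation was not measured here.

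The tested members fell into 2 stretches along the chromosome, a division set after the values were seen and therefore given with no test. Before PEG3 lie 8 members, ordered ZNF582, ZNF583, ZNF667, ZNF471, ZFP28, ZNF470, ZNF71 and ZNF835, of which all but ZNF667 and ZNF835 were tested; they are called the proximal members. After PEG3 lie 42 members, 26 of them tested, which are called the distal members. The proximal tested members had a median transcript GC content of 41.2%, against 46.0% for the distal tested members, 47.1% for the untested members and 48.8% for all tested genes.

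RefSeq promoter windows of the build GRCh38.p14, the 250 bases before the start of the gene, are shown for 3 proximal members that were expressed and for their silent neighbour ZNF667, to set the expressed and the silent gene of 1 stretch side by side. Capitals mark GAAAG, the core of the element that PRDM1 and interferon regulatory factors are known to bind, or its reverse complement CTTTC. ZNF582 lies on the minus strand at chr19:56393535-56393784, ZNF583 on the plus strand at chr19:56403764-56404013, ZNF71 on the plus strand at chr19:56595052-56595301, and ZNF667 on the minus strand at chr19:56477346-56477595.
ZNF582: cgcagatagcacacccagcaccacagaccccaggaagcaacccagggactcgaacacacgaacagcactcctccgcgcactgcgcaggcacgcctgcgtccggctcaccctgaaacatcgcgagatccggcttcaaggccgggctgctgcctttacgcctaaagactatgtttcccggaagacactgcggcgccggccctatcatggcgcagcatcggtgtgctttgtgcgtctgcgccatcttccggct
ZNF583: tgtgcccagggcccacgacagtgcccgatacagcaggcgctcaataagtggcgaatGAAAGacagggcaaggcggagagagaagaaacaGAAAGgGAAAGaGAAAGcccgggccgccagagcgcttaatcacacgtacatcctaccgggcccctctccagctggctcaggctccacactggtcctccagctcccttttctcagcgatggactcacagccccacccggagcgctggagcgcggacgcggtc
ZNF71: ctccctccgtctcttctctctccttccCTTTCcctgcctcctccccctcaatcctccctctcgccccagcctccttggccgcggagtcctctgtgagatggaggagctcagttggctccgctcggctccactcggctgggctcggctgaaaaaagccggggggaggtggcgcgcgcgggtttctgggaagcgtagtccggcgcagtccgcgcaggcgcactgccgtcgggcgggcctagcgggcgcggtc
ZNF667: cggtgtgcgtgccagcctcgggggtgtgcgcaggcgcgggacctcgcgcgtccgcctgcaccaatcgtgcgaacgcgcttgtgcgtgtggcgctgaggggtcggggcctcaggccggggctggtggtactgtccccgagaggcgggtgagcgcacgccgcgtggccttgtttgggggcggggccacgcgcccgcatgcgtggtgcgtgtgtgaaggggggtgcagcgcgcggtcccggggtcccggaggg

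The table holds 2 windows for ZNF583, of which the first listed is printed, with 4 matches, and the other held 1 match and 23 CpG dinucleotides. The window of ZNF71 held 1 match and those of ZNF582 and ZNF667 none. That of ZNF470, which is not printed, held 0 matches and 15 CpG dinucleotides. GAAAG or CTTTC occurred in 25 of the 49 windows of the 45 members found in the RefSeq table (51.0%). Among tested proximal members it was in 3 of 5 windows (60.0%), 2 of these 3 being of ZNF583. It was in 10 of 24 windows of tested distal members (41.7%) and in 12 of 20 windows of untested members (60.0%). Of all 35116 windows of the same length, 48.9% held it. The longer GAAAGT, on either strand and counted also where it extends a GAAAG match, was in 10.2% of member windows and 11.4% of all windows. A match is a description of these letters only. CpG dinucleotides were frequent in the windows, with a median of 18 in tested and in untested members against 11 in all windows, and the printed windows held 23 in ZNF582, 17 in ZNF583, 25 in ZNF71 and 35 in ZNF667. ZFP28, ZNF471, ZNF211, ZNF552 and ZNF417 had no entry in that table.

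The knockout derivatives were examined first. All 6 tested proximal members were lower in both knockout derivatives than in wild type, by 2.46-fold to 17.1-fold, while of the 26 distal members 1 was called in KO2 (3.85%, against 30.0% of all tested genes) and 6 in KO5 (23.1% against 51.2%). Tests are edgeR's quasi-likelihood test, fitted to 12858 genes, with Benjamini-Hochberg adjustment over all of them, and a gene is called higher or lower where the adjusted p is under 0.05. In bulk RNA, fewer cells expressing a gene and less RNA per cell cannot be told apart. Both knockout comparisons use the same wild-type libraries, so they are given side by side and their likeness is not counted as a second result.

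ZFP28, whose protein carries more than 1 KRAB domain, was at 27.6 and 27.1 CPM in wild type, against 1.91 and 2.16 in KO2 and 1.83 and 2.42 in KO5. All 4 knockout libraries lay more than 10-fold below both wild-type libraries. The log2 fold change was -3.71 ± 0.12 (SE, n = 2 libraries a group) in KO2 (edgeR adjusted p = 1.83e-34) and -3.66 ± 0.14 in KO5 (edgeR adjusted p = 8.89e-33). ZNF470, a KRAB zinc finger gene, was at 3.70 and 4.09 CPM in wild type, against 0.114 and 0.477 in KO2 and 0.266 and 0.175 in KO5. The knockout levels rested on 5 and 17 counts in KO2 and 8 and 5 in KO5, and the KO2 libraries differed about 4-fold between themselves. The log2 fold changes were -3.77 ± 0.35 (edgeR adjusted p = 5.98e-17) and -4.09 ± 0.45 (edgeR adjusted p = 4.25e-16). Without KO2 replicate 1 the KO2 value was -2.99, and without KO2 replicate 2 it was -5.03.

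ZNF471, a KRAB protein described as a growth suppressor silenced in several carcinomas, was at 6.36 and 6.72 CPM in wild type, against 0.750 and 0.618 in KO2 and 0.633 and 0.735 in KO5. The 4 knockout libraries were alike and stood about 9-fold below wild type. Its log2 fold change was -3.20 ± 0.21 in KO2 (edgeR adjusted p = 2.49e-21) and -3.23 ± 0.24 in KO5 (edgeR adjusted p = 5.89e-20). ZNF583, the member with the highest wild-type level per kilobase, was at 92.5 and 84.8 CPM in wild type, against 18.3 and 18.8 in KO2 and 23.9 and 23.7 in KO5. It fell in both derivatives, and less in KO5 than in KO2. The log2 fold changes were -2.22 ± 0.05 (edgeR adjusted p = 3.85e-36) and -1.86 ± 0.05 (edgeR adjusted p = 4.30e-33), and their difference of 0.35 ± 0.06 passed the test of KO5 against KO2 (edgeR adjusted p = 4.35e-06).

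The 2 members at the ends of the stretch fell least. ZNF71, at its downstream end, was at 48.5 and 50.5 CPM in wild type, against 18.4 and 18.6 in KO2 and 19.9 and 19.7 in KO5. Its log2 fold changes were -1.39 ± 0.05 in KO2 (edgeR adjusted p = 1.42e-27) and -1.30 ± 0.06 in KO5 (edgeR adjusted p = 1.21e-25). ZNF582, the first member and a KRAB gene whose methylation has been used as a marker in cervical and oral cancer, was at 0.794 and 0.679 CPM in wild type, against 0.250 and 0.309 in KO2 and 0.133 and 0.420 in KO5. These are 29 and 38 counts in wild type against 11, 11, 4 and 12 in the knockouts, the lowest level per kilobase of the proximal tested members. The log2 fold change was -1.34 ± 0.38 in KO2 (edgeR adjusted p = 0.00269) and -1.37 ± 0.42 in KO5 (edgeR adjusted p = 0.00285). The KO2 value was not called without KO2 replicate 1 (-1.18, edgeR adjusted p = 0.0581) and was called without KO2 replicate 2 (-1.49, edgeR adjusted p = 0.0132). The KO5 value was not called without KO5 replicate 1 (-0.76, edgeR adjusted p = 0.158) and was called without KO5 replicate 2 (-2.38, edgeR adjusted p = 0.00119).

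**Figure D2:**
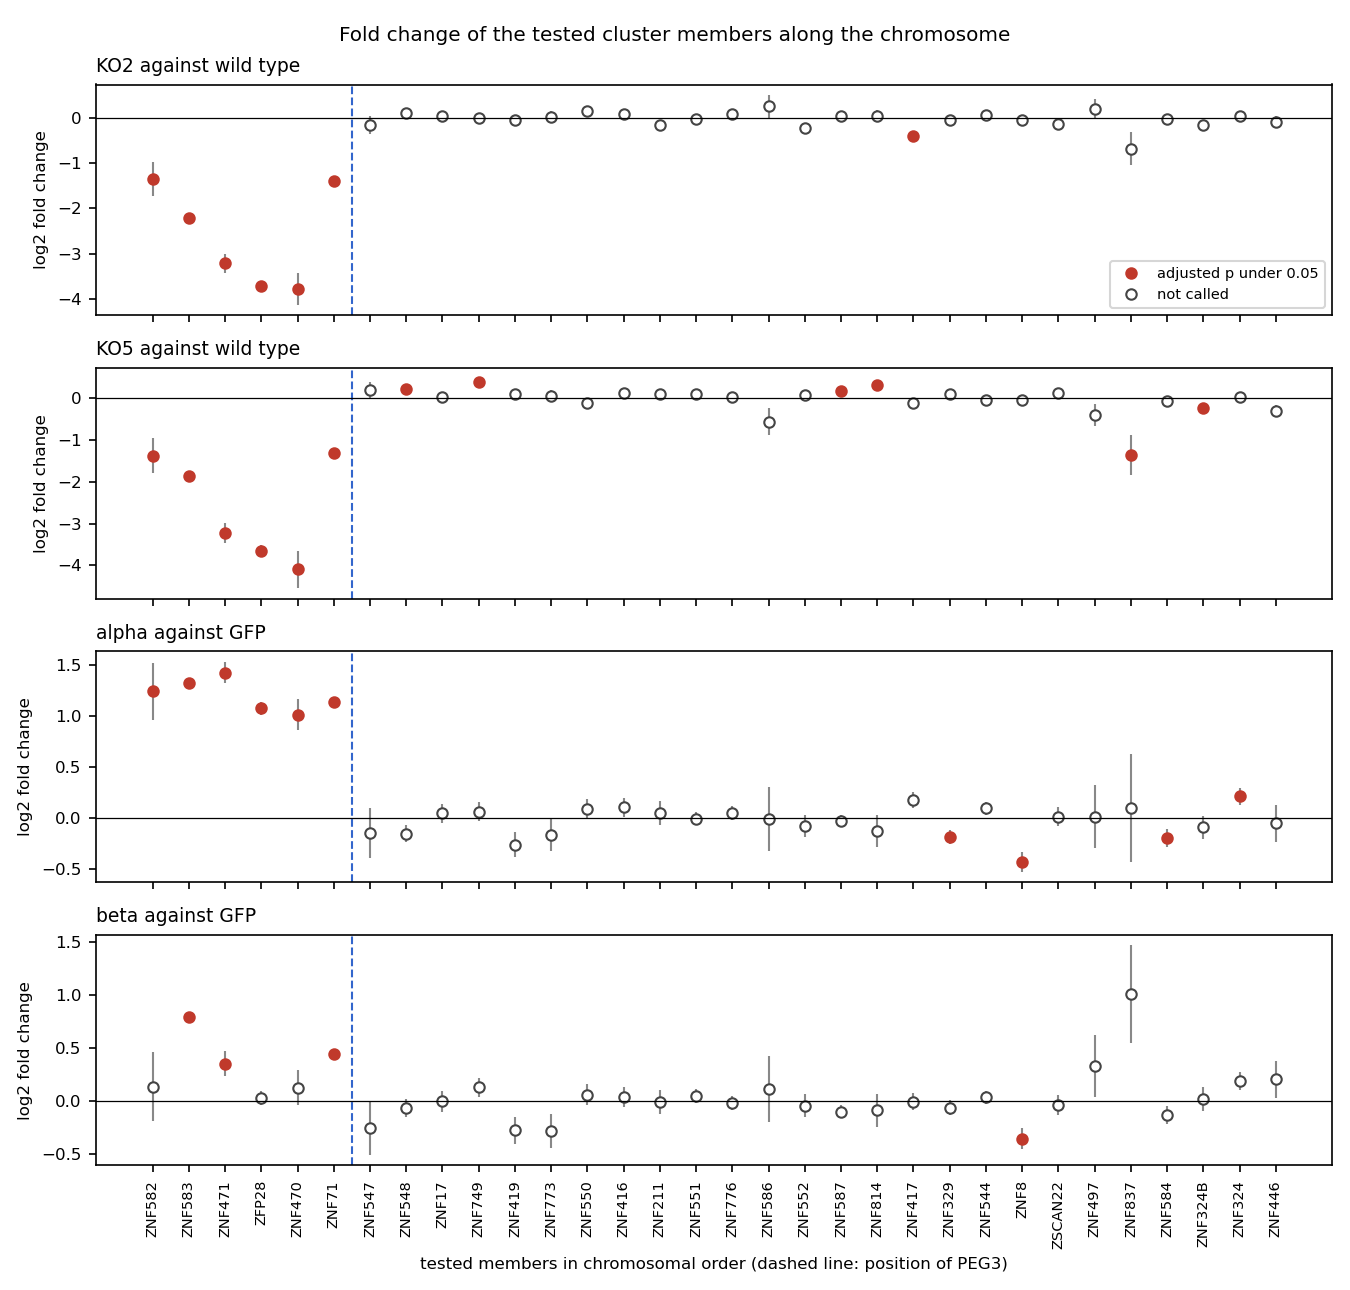
Log2 fold change of each of the 32 tested members in chromosomal order, for KO2 and KO5 against wild type and for alpha and beta against GFP, with standard errors from the fit. Filled red points passed at adjusted p under 0.05, open points did not, and the dashed line marks the position of PEG3. The 6 members left of the line sit between -1.30 and -4.09 in the knockouts and between 1.02 and 1.43 with alpha, whereas most points to the right lie near 0, the farthest being ZNF837, at -0.68 in KO2, -1.35 in KO5 and 1.01 with beta.

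In KO2, 7 of the 32 tested members were called lower, namely the 6 proximal members and ZNF417, and none was called higher. Of all tested genes 14.9% were called lower and 15.1% higher. The 6 proximal members were also the ones at least 2-fold lower, which held for 1.55% of all genes. In KO5, 8 members were called lower and 4 higher, against 25.9% and 25.2% of all genes, and 7 were at least 2-fold lower against 1.54% of all genes. The median log2 fold change was -2.71 in KO2 and -2.55 in KO5 over the 6 proximal members, -0.02 and 0.05 over the 26 distal members, and 0.00 in both over all genes.

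Fold changes across the 12549 tested genes with a known transcript GC content followed that content in KO5 against wild type (Spearman -0.52, across genes of the same libraries) and hardly in KO2 (-0.07). In KO5 against KO2 the value was -0.42. With the GC trend of each library removed, the proximal log2 fold changes in KO5 were -1.48 for ZNF582, -2.0 for ZNF583, -3.33 for ZNF471, -3.74 for ZFP28, -4.20 for ZNF470 and -1.24 for ZNF71. All 6 were still called, ZNF71 at a smaller size than before and the other 5 at a larger one. The counts over the cluster in KO5 shifted to 2 higher and 7 lower.

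Overexpression was examined next. With PRDM1α, all 6 tested proximal members rose, by 2.02-fold to 2.69-fold over GFP. Of the 26 distal members, 4 were called at smaller sizes (15.4%, against 37.5% of all tested genes). This comparison shares no library with those of the knockouts. ZNF471 was at 6.61 and 6.65 CPM with GFP and 17.5 and 18.1 with alpha, a log2 fold change of 1.43 ± 0.11 (edgeR adjusted p = 3.54e-16). ZNF583 was at 90.9 and 95.2 CPM with GFP and 238 and 228 with alpha, a change of 1.33 ± 0.04 (edgeR adjusted p = 2.42e-31). For both genes, each alpha library lay above every one of the other 10 libraries.

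ZNF582 was at 0.866 and 0.909 CPM with GFP and 2.33 and 1.83 with alpha, a log2 change of 1.25 ± 0.28 (edgeR adjusted p = 2.49e-04). ZNF71 was at 48.8 and 45.5 CPM with GFP and 105 and 101 with alpha, a change of 1.14 ± 0.05 (edgeR adjusted p = 3.94e-26). ZFP28 was at 27.7 and 25.7 CPM with GFP and 55.6 and 56.5 with alpha, a change of 1.08 ± 0.06 (edgeR adjusted p = 6.50e-21). These genes, too, were higher in both alpha libraries than in any other library. ZNF470 was at 4.33 and 3.85 CPM with GFP and 7.60 and 8.93 with alpha, a log2 change of 1.02 ± 0.15 (edgeR adjusted p = 2.69e-07). The 6 rises thus spanned 2.02-fold to 2.69-fold, and the falls in KO2 2.54-fold to 13.6-fold.

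**Figure D3:**
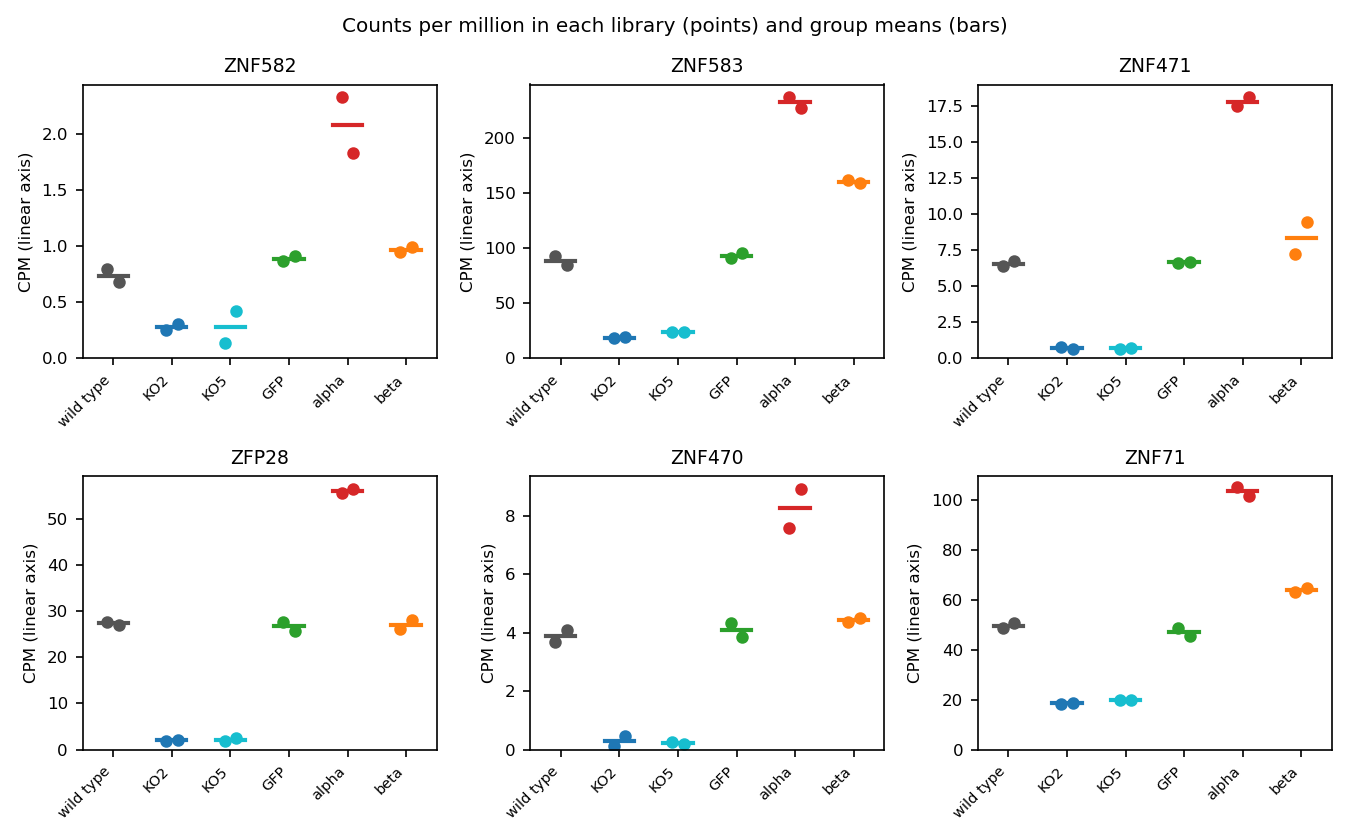
Level in CPM on a linear axis from 0 of the 6 tested proximal members in each of the 12 libraries. Points are libraries and short bars group means. In each panel the 2 alpha libraries are the highest and the 4 knockout libraries the lowest. With beta, ZNF583 stands at 162 and 159 CPM, above GFP at 90.9 and 95.2, while ZFP28 at 26.1 and 28.1 overlaps GFP at 27.7 and 25.7.

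With PRDM1β the values were smaller. The PRDM1 RNA level was 1180 CPM in both beta libraries, against 487 and 480 with alpha. Protein was not measured, and the cause of the difference between the forms was not tested. ZNF583 was at 162 and 159 CPM with beta, a log2 change of 0.79 ± 0.04 over GFP (edgeR adjusted p = 1.05e-21). ZNF71 was at 63.0 and 64.5 CPM, a change of 0.45 ± 0.05 (edgeR adjusted p = 1.51e-10). ZNF471 was at 7.24 and 9.43 CPM, a change of 0.36 ± 0.12 (edgeR adjusted p = 0.0147) that was not called without beta replicate 2 (0.14), without either GFP library or with the DESeq2 Wald test. The other proximal members were not called: ZFP28 was at 26.1 and 28.1 CPM (0.03 ± 0.07, edgeR adjusted p = 0.722), ZNF470 at 4.36 and 4.51 (0.13 ± 0.17, edgeR adjusted p = 0.581) and ZNF582 at 0.944 and 0.993 (0.14 ± 0.33, edgeR adjusted p = 0.774).

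The difference between the 2 forms was itself tested. All 6 proximal members were called higher with alpha than with beta, and no distal member was called in either direction. Of all tested genes 6.24% were called, 3.45% higher with alpha and 2.79% higher with beta. The log2 difference was 1.11 ± 0.29 for ZNF582 (edgeR adjusted p = 0.00852), 1.07 ± 0.11 for ZNF471 (edgeR adjusted p = 2.52e-11) and 1.04 ± 0.06 for ZFP28 (edgeR adjusted p = 6.11e-19). It was 0.89 ± 0.16 for ZNF470 (edgeR adjusted p = 4.54e-05), 0.70 ± 0.05 for ZNF71 (edgeR adjusted p = 3.88e-17) and 0.54 ± 0.04 for ZNF583 (edgeR adjusted p = 7.46e-16), the member with the largest beta effect. For ZNF582 the call was lost without alpha replicate 1 (0.91, adjusted p = 0.177), without beta replicate 1 (1.08, adjusted p = 0.0719) and without beta replicate 2 (1.15, adjusted p = 0.0998).

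Over the whole cluster, 7 members were called higher and 3 lower with alpha, against 21.2% and 16.3% of all genes, and the 6 proximal members were those at least 2-fold higher, against 1.72% of all genes. With beta, 3 were called higher and 1 lower, against 22.9% and 18.0% of all genes. The median log2 change of the proximal members was 1.19 with alpha and 0.25 with beta. For the distal members it was 0.00 and -0.01, and for all genes 0.01 and 0.01. Alpha and beta are compared here with the same GFP libraries.

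In the knockouts and with alpha, the expressed genes on either side of the tested proximal members changed less than these did. Upstream of ZNF582, the SCAN gene ZSCAN5A was at 2.79 and 2.43 CPM in wild type, against 1.93 and 1.97 in KO2 and 1.87 and 1.82 in KO5. Its log2 change was -0.37 ± 0.16 in KO2 (edgeR adjusted p = 0.0786), -0.46 ± 0.18 in KO5 (edgeR adjusted p = 0.0278) and 0.39 ± 0.20 with alpha (edgeR adjusted p = 0.113), with the signs of the proximal members at a smaller size. Downstream of ZNF71, SMIM17 was at 0.931 and 1.29 CPM in wild type, against 0.955 and 0.983 in KO2 and 0.466 and 0.525 in KO5. It was called in KO5 (-1.17 ± 0.31, edgeR adjusted p = 8.26e-04) but neither in KO2 (-0.20 ± 0.23, edgeR adjusted p = 0.549) nor with alpha (0.38 ± 0.27, edgeR adjusted p = 0.296). These values of SMIM17, too, had the signs of the proximal members. PEG3 had at most 1 count in a library. Beyond it, ZNF264 was not called in KO2 (-0.09 ± 0.06, edgeR adjusted p = 0.259), rose in KO5 (0.59 ± 0.06, edgeR adjusted p = 5.27e-11) and fell slightly with alpha (-0.22 ± 0.07, edgeR adjusted p = 0.0177). The antisense genes ZNF582-AS1 and ZNF667-AS1 had at most 1 count in a library. Whether counting used the strand is not stated.

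The distal members stayed near their control levels in most comparisons, within bounds that their counts allow. In alpha and in beta against GFP, and in KO2 against wild type, the 95% interval of the fold change lay within 2-fold in either direction for 25 of the 26, the exception each time being ZNF837. In KO5 it did so for 24, with ZNF586 as the other exception. These 2 genes are among the members with the lowest levels. ZNF837 was at 0.438 and 0.608 CPM in wild type, against 0.296 and 0.365 in KO2 and 0.200 and 0.210 in KO5, and its fall in KO5 (log2 -1.35 ± 0.48, edgeR adjusted p = 0.00876) rested on 12 counts against 50 and was not called after GC correction (-0.95, adjusted p = 0.087). With beta it was at 0.630 and 0.662 CPM against 0.197 and 0.436 with GFP (1.01 ± 0.46, edgeR adjusted p = 0.0667).

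With alpha, 1 of the 26 distal members was called higher and 3 lower, against 21.2% and 16.3% of all genes. ZNF8, whose protein is known to bind SMAD1 and dampen BMP signalling, was at 15.0 and 14.6 CPM with GFP, against 10.7 and 11.3 with alpha and 12.9 and 10.4 with beta. It was the only distal member called with both forms and lay below its GFP and wild-type levels in all 4 PRDM1 libraries. The log2 change was -0.43 ± 0.10 with alpha (edgeR adjusted p = 4.37e-04) and -0.35 ± 0.10 with beta (edgeR adjusted p = 0.00274), and the latter was not called without beta replicate 2 (-0.19). In the knockouts ZNF8 was at 15.0 and 15.7 CPM in KO2 and 14.1 and 16.9 in KO5, overlapping wild type at 15.5 and 16.6. ZNF584 (-0.20 ± 0.08, edgeR adjusted p = 0.0475), ZNF329 (-0.19 ± 0.07, edgeR adjusted p = 0.0382) and ZNF324 (0.21 ± 0.08, edgeR adjusted p = 0.0351) were called with alpha at small sizes, and each call was lost under 7 of the 11 other settings tried.

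In KO2, ZNF417 was the distal member called. ZNF417 and its close paralog ZNF587 are known for repressing HERV-K and related retroviral elements in human cells, and reads of such near-identical genes may have been split between them. ZNF417 was at 19.9 and 19.6 CPM in wild type, against 15.1 and 13.9 in KO2 and 17.1 and 18.9 in KO5. It was lowest in KO2, with a log2 change of -0.41 ± 0.07 (edgeR adjusted p = 5.78e-06). ZNF587 was at 42.1 and 45.1 CPM in wild type, against 44.1 and 44.0 in KO2 and 46.0 and 50.5 in KO5, and it was called higher in KO5 (0.17 ± 0.05, edgeR adjusted p = 0.00486).

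The largest distal rise in KO5 was that of ZNF749, at 12.7 and 13.3 CPM in wild type, against 12.5 and 12.8 in KO2 and 15.6 and 18.4 in KO5. Both KO5 libraries lay above the other 10, and the log2 change was 0.40 ± 0.07 (edgeR adjusted p = 1.02e-05). ZNF814 (0.32 ± 0.13, edgeR adjusted p = 0.0379) and ZNF548 (0.24 ± 0.07, edgeR adjusted p = 0.00419) were also called higher and ZNF324B (-0.22 ± 0.10, edgeR adjusted p = 0.0476) lower. After GC correction ZNF749 was still called, whereas ZNF587 (0.10), ZNF814 (0.25), ZNF548 (0.15, adjusted p = 0.0812) and ZNF324B (-0.05) were not. ZNF814 shares sequence with ZNF587 and ZNF417, and ZNF324B with ZNF324, so their reads are uncertain in the same way.

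Between KO5 and KO2, 9 members were called higher in KO5 and 3 lower, against 26.8% and 28.1% of all genes, 54.9% together. Apart from ZNF583 these were distal members. ZNF749 was higher in KO5 by 0.42 ± 0.08 and ZNF417 by 0.30 ± 0.07 on the log2 scale, and ZNF586 was lower by 0.81 ± 0.32, at 0.533 and 0.560 CPM in KO5 against 0.910 and 1.01 in KO2 (edgeR adjusted p = 0.0201). None of the 12 differed by 2-fold. Among the proximal members ZFP28, ZNF470, ZNF471, ZNF71 and ZNF582 were not called between the derivatives. With the DESeq2 Wald test 3 members were called in place of 12. ZNF547, ZNF17, ZNF419, ZNF773, ZNF416, ZNF776, ZNF544 and ZNF446 were called in none of the 7 comparisons. ZNF547 starts at the same place as TRAPPC2B in the annotation, so that its reads may not be its own.

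GFP against wild type served as the background of overexpression. By edgeR 0 of the 32 members were called, and DESeq2 also called 0. At an unadjusted p under 0.05 edgeR's count was 1, namely ZNF446 (log2 -0.33, edgeR adjusted p = 0.110). Of all genes 8.81% were called higher and 10.2% lower in the same comparison, 2444 in all. That background moved with GC content (Spearman -0.67 across the 12549 genes), and with GC correction 94 genes were called and again 0 members. ZNF583 was at 90.9 and 95.2 CPM with GFP and 92.5 and 84.8 in wild type, and the log2 differences of the 6 proximal members ran from -0.07 to 0.29.

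The machinery that KRAB zinc finger proteins work through, and enzymes that remove its mark, were read from 5 lists. These were the TRIM28 corepressor complex, the HUSH complex, enzymes of H3K9 methylation and demethylation, DNA methylation genes, and ATRX with DAXX. Of their 42 genes in the files 41 were tested, and no change reached 2-fold in any comparison, the values running from -0.52 to 0.61 on the log2 scale. In KO2 8 were called higher and 7 lower (36.6% of the 41, against 30.0% of all genes), and in KO5 11 and 12 (56.1% against 51.2%). With alpha 11 were called higher and 7 lower (43.9% against 37.5%), and with beta 16 and 6 (53.7% against 40.9%). The median log2 change of the 41 was 0.02 in KO2, 0.01 in KO5, 0.02 with alpha and 0.03 with beta, near that of all genes.

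TRIM28, whose gene lies a few genes past the last member, was at 667 ± 28.8 CPM (SD, n = 2) in wild type, 629 ± 13.6 in KO2, 612 ± 5.34 in KO5, 592 ± 24.4 with GFP, 618 ± 7.14 with alpha and 572 ± 7.46 with beta. It was not called in KO2 (-0.05 ± 0.03, edgeR adjusted p = 0.203) or with alpha against GFP (0.07 ± 0.03, edgeR adjusted p = 0.0703). TRIM28 was called higher with alpha than with beta, at 0.098 to 0.13 over the 11 other settings tried, and this call was lost under 4 of them. Its call in KO5 (-0.10 ± 0.03, edgeR adjusted p = 0.00497) turned to 0.15 after GC correction. SETDB1 was at 28.8 ± 0.904 CPM in wild type, 26.6 ± 0.459 in KO2, 28.6 ± 0.419 in KO5 and 26.6 ± 0.371 with alpha and was called in none of the 7 comparisons. The derivatives differed in some partners. FAM208A, the HUSH subunit also named TASOR, was at 106 ± 1.29 CPM in wild type, 78.5 ± 1.22 in KO2 (-0.39 ± 0.04, edgeR adjusted p = 2.43e-12) and 114 ± 1.48 in KO5 (0.13 ± 0.04, edgeR adjusted p = 0.00171). ATF7IP, which stabilises SETDB1, likewise fell in KO2 (-0.31 ± 0.04, edgeR adjusted p = 7.00e-09) and rose in KO5 (0.31 ± 0.04, edgeR adjusted p = 1.42e-09). With overexpression, CBX5, which encodes HP1 alpha, rose with alpha (0.48 ± 0.05, edgeR adjusted p = 1.24e-06) and beta (0.33 ± 0.05, edgeR adjusted p = 9.92e-05), and so did the H3K9 demethylase gene KDM4A (0.33 ± 0.04 with alpha, edgeR adjusted p = 9.97e-10, and 0.46 ± 0.04 with beta, edgeR adjusted p = 4.75e-14). Other genes of the lists fell. Of the 9 H3K9 genes, 4 were called higher and 2 lower with each form. EHMT2 fell with both, at -0.23 to -0.15 with alpha and -0.27 to -0.17 with beta over the 11 other settings tried. KDM4C fell with both too (-0.21 to -0.15 and -0.24 to -0.08), each call being lost under 3 settings.

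The pattern of the proximal members, at least 2-fold lower in a knockout and at least 2-fold higher with alpha, was counted over all genes, with the rule set after the values were seen. It held for 51 of 12858 genes with KO2 (0.397%) and for 53 with KO5 (0.412%). Among these were all 6 tested proximal members with either derivative and no distal member. Of the 432 other tested zinc finger genes, 13 showed it with KO2 and 10 with KO5, and each of these lies on chromosome 19 nearer the centromere than the first member. They include genes of the KRAB cluster at 19q13.12, such as ZFP82 (-5.50 in KO2, -6.20 in KO5, 1.06 with alpha), ZNF568 (-2.49, -2.29 and 1.61) and ZNF345 (-2.76, -2.43 and 1.34). Over all 432, the median log2 change was -0.06 in KO2, 0.02 in KO5 and 0.03 with alpha, near that of the distal members. Of the 432, however, 30 were at least 2-fold lower in KO2 and 19 in KO5. The numbers were 0 and 1 for the 26 distal members and 199 and 198 for all 12858 genes.

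**Figure D4:**
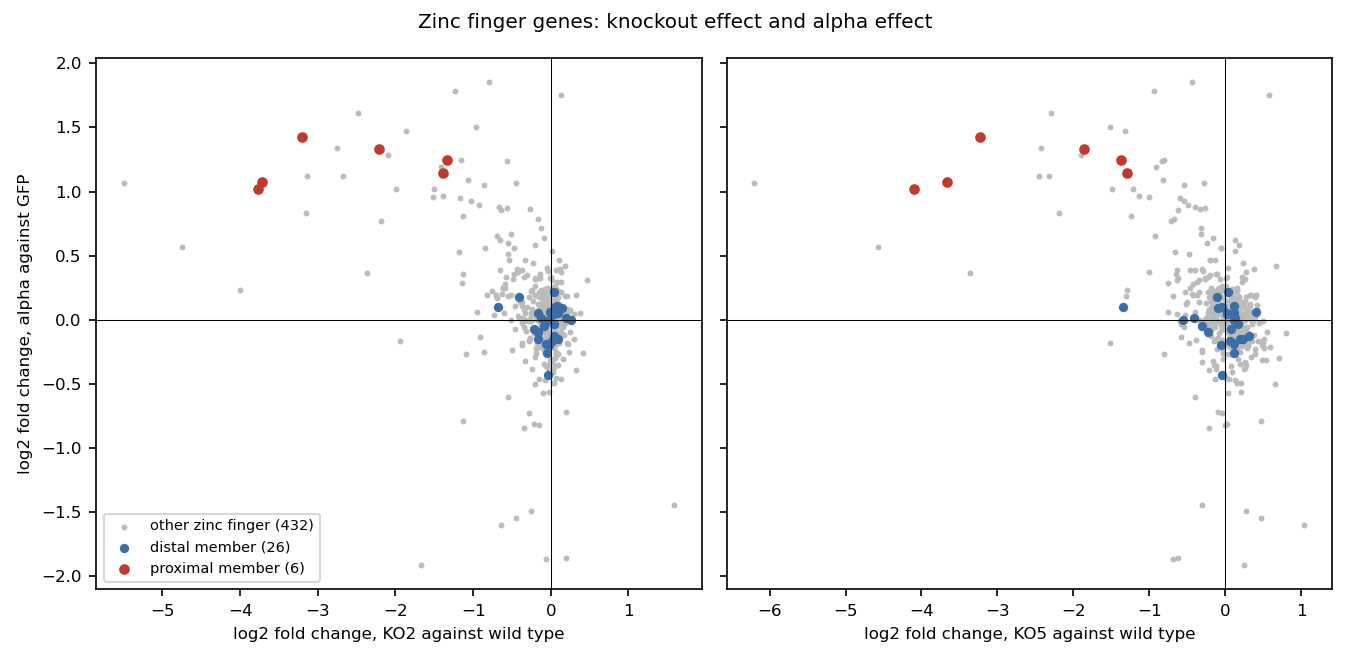
Log2 fold change with alpha against GFP (vertical) over that in KO2 or KO5 against wild type (horizontal) for the 464 tested zinc finger genes. Red points are the 6 proximal members, blue points the 26 distal members and grey points the 432 other genes with a zinc finger symbol. The red points lie in the upper left, lower in the knockout and higher with alpha, together with some grey points, and most blue points lie around the origin, the farthest from it being ZNF837 at -0.68 in KO2 and -1.35 in KO5.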

How the data were processed

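Polyadenylated RNA of 12 RKO libraries, 2 in each of 6 groups taken from the labels, was sequenced with a stranded kit. The authors deposited whole-number counts per gene symbol with no normalization. TopHat, Bowtie2 and Cufflinks with build hg19 were used per the submitters' processing notes, in roles and versions not given, and the counter and its use of strand are not given in the sources used here. The authors' own comparison tables were not used. The 2 entries that name no gene, no feature (9.13% to 10.8% of these and the gene counts together) and ambiguous (1.66% to 1.75%), were left out.

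In R 4.3.3 with edgeR 4.0.16, filterByExpr kept 12858 genes, libraries were scaled by TMM, and a robust quasi-likelihood model (1 mean for each group, spread shared by the groups) was fitted to the 12 libraries. The 7 comparisons were tested with Benjamini-Hochberg adjustment over all genes at 0.05, and the script was tested on simulated data. Standard errors are of the Wald kind, at fitted means and dispersions. Alternatives were DESeq2 1.42.0 (size factors, Wald test), no low-count filter, only the compared groups, a replicate block, a loess correction for GC content (span 0.3) and each library left out. Lengths and GC are those of the longest protein-coding GENCODE transcript of a symbol, and gene order is that of RefSeq.

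Members and lists were chosen with earlier results of these data known. Named were ZNF274, ZNF671, ZNF154, ZNF471, ZNF582, ZNF667, ZFP28, ZSCAN18, PRDM1, TRIM28, SETDB1, up to 6 members with the largest called rises and falls in each comparison, members called alike with alpha and beta, and up to 3 genes a direction of the other lists; part of the last is given. Neighbours, pattern examples and the remaining members were named after their values were seen.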

Additional observations from a re-analysis of the deposited data

Results flagged for a closer look

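The effects of the knockouts against wild type were compared between the derivatives, and for 12 members the difference itself passed edgeR's quasi-likelihood test of KO5 against KO2. KO5 was the higher by 0.35 on the log2 scale for ZNF583, 0.42 for ZNF749, 0.29 for ZNF211, 0.14 for ZNF551, 0.30 for ZNF552, 0.12 for ZNF587, 0.30 for ZNF417, 0.17 for ZNF329 and 0.26 for ZSCAN22. For ZNF550 the difference was -0.25, for ZNF586 -0.81 and for ZNF497 -0.61. A difference between KO5 and KO2 was called for 54.9% of all tested genes, so that 12 of 32 is not above that share. ZNF583, ZNF417 and ZNF749 kept theirs under all 11 other settings tried, and the other 9 lost it under at least 2 of them.

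For 6 members, the effects of PRDM1α and PRDM1β against GFP differed by the same test. The alpha effect was the larger by 1.11 for ZNF582, 0.54 for ZNF583, 1.07 for ZNF471, 1.04 for ZFP28, 0.89 for ZNF470 and 0.70 for ZNF71, in log2 units. These are the 6 tested members before PEG3, and 6.24% of all tested genes were called in that comparison.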

How the results depend on the processing

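Calls of the 6 proximal members kept their direction and side of the threshold in 298 of 308 combinations of call and setting and were lost in 10, those being of ZNF582 in both knockouts and between the forms and of ZNF471 with beta. Distal calls were kept in 160 and lost in 93. ZNF417 in KO2, ZNF749 in KO5 and ZNF8 with alpha were called under all 11 alternatives, and ZNF324B in KO5 was lost under 10. Members called in KO5 against KO2 numbered 12 with edgeR and 3 with the DESeq2 Wald test. Leaving out each library in turn gave 6 to 7 there, 6 to 8 in KO2, 8 to 10 in KO5, 7 to 10 with alpha, 2 to 5 with beta (2 without beta replicate 2), 5 to 6 for alpha against beta and 0 to 1 for GFP against wild type. GC correction turned TRIM28 from -0.10 to 0.15 in KO5, from -0.05 to 0.16 in KO5 against KO2 and from -0.17 to 0.002 in GFP against wild type, with or without the block. The cause was not tested.

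Replicate numbers are shared by the groups. Deviations of same-numbered libraries correlated between -0.065 and 0.056 over 15 pairs of groups, so no effect common to them was seen. This cannot tell whether same-numbered libraries were handled together, which the labels leave unsaid. With a replicate block the called members were 9 with alpha (7 higher, 2 lower), 11 in KO5, 7 in KO2, 4 with beta, 6 for alpha against beta, 12 for KO5 against KO2 and 0 for GFP. With 2 libraries a group, an arm that leaves 1 out is assumed to vary like the other groups, and genes near or under 1 CPM have few counts.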
